A study of Mus musculus with 12 samples.

Results

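The striatum and the prefrontal cortex of control mice were compared gene by gene at postnatal day 24, as a description of how these regions differ without a lesion. The comparison used 6 of the 12 libraries of the study, 3 of control striatum and 3 of control prefrontal cortex, chosen by their labels. All mice were C57BL/6J, and bulk mRNA was sequenced from dissected tissue. The other 6 libraries came from the same regions of mice lesioned with the dopamine neuron toxin 6-hydroxydopamine. They took part in the selection of rows, the filter on low counts, the scaling and the estimate of the spread, and are otherwise used only for the sign of their own difference. The sources used here do not say whether controls received a vehicle, whether tissue was pooled or how it was dissected. No label names the animals behind the 3 libraries per group, so p-values measure only the spread among these samples, which may be technical.

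The deposited table holds counts for 21872 gene symbols. Of these, 3732 were at 0 in all 12 libraries and 1830 held only multiples of 11, which together with the zeros were left out. The remaining 16310 symbols were filtered for low counts, and 14545 were tested. The 6 control libraries had total counts of 15078631 to 20925452, so that 3 counts, taken as the floor of detection, stood for 0.148 to 0.204 CPM. CPM are counts scaled to the same library total after TMM, a factor that makes libraries of different composition comparable. Floors cover counting error only.

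The dorsal forebrain gives rise to the cortex, whose main neurons are excitatory pyramidal cells that release glutamate. The ventral forebrain gives rise to the striatum, whose main neurons are GABA-releasing projection neurons with dense dopamine input. These projection neurons fall into a direct pathway class, with the D1 dopamine receptor, substance P and dynorphin, and an indirect pathway class, with the D2 dopamine receptor, an adenosine receptor and enkephalin. In bulk tissue, fewer cells of a type and less RNA per cell cannot be told apart.

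Between the regions, 6243 of 14545 genes (42.9%) differed at an adjusted p below 0.05 in edgeR's quasi-likelihood test. Striatum was higher in 3149 of them (21.7% of genes tested) and lower in 3094 (21.3%). Most of these differences were small: the median absolute log2 fold change of the called genes was 0.566, and 3221 called genes (51.6%) differed by less than 1.5-fold. Large differences were more often in the direction of striatum. At 2-fold or more, 985 genes were higher and 658 lower, together 11.3% of genes tested. At 16-fold or more, 75 were higher and 22 lower. Libraries of the regions did not overlap in 7981 genes (54.9%), among them 6085 of the called genes. Of the 6243 called genes, 4357 stayed called with each of the 6 control libraries left out in turn. The lesioned libraries, which share no library with these, had the same sign of difference in 6078 of the 6243 genes (97.4%).

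**Figure D1:**
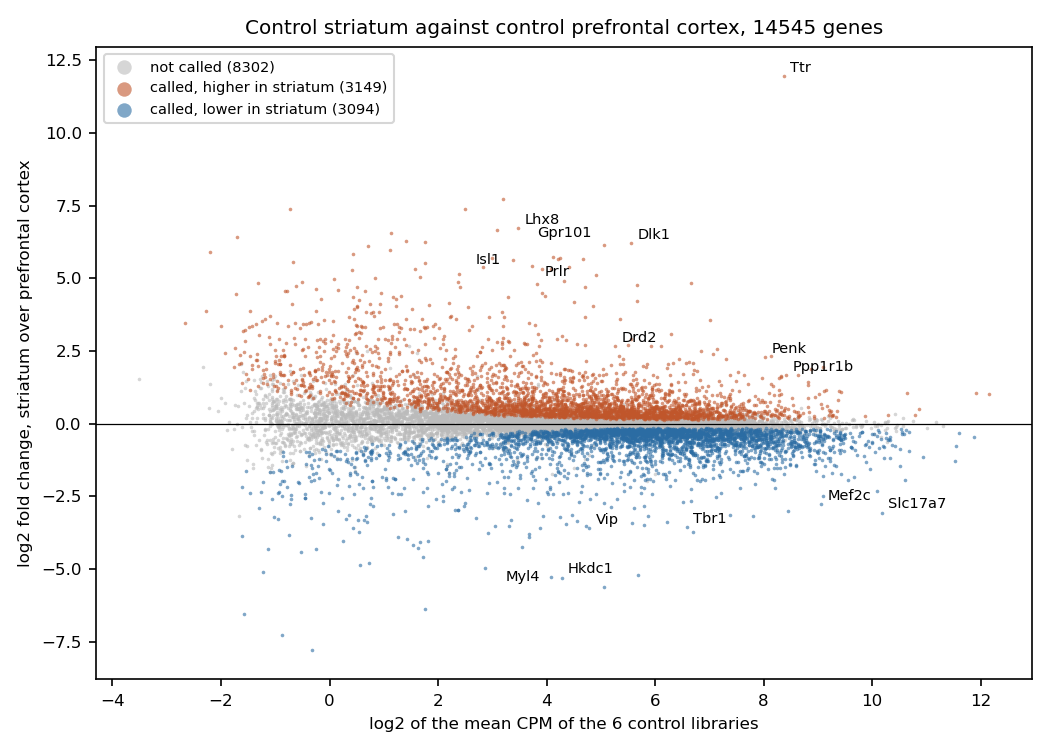
Log2 fold change of control striatum over control prefrontal cortex (vertical axis) against the log2 of the mean CPM of the 6 control libraries (horizontal axis). Each point is 1 of the 14545 genes tested, coloured by its call. Of the 3149 genes called higher in striatum, 75 differ by 16-fold or more, against 22 of the 3094 called lower.

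The libraries differed in how much they held of transcripts that mark neighbouring structures. Control striatal library 2 stood apart: the chi-square statistic per gene between libraries 1 and 3 was 5.52, against 25.75 and 25.41 for the pairs with library 2. The prefrontal pairs lay between 5.26 and 5.58. Ttr, which encodes transthyretin, the main secreted product of the choroid plexus, had 4.84, 1956 and 32.1 CPM in the striatal libraries. Neurod6, a transcription factor of pyramidal neurons of cortex and hippocampus, had 0.233, 89.0 and 1.37 CPM there. Of 16 hippocampal and dentate gyrus markers, a list written after these values had been seen, 14 were highest among striatal libraries in library 2. They included Prox1, a transcription factor of dentate granule cells, with 20.9, 94.2 and 27.3 CPM, and Dsp, which encodes desmoplakin, with 0.758, 29.2 and 0.659 CPM. The part of such tissue in the results was not tested, and values without library 2 are given beside the results that it moved most. Without it 6197 genes were called, 3094 higher and 3103 lower.

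In the prefrontal group, library 3 held the highest level of 18 of the 22 striatal projection neuron markers and of all 20 myelin genes. Without prefrontal library 3, 5559 genes were called. The plot of marker lists by library shows the departures of striatal library 2 and prefrontal library 3. Prefrontal library 1 stood apart in single genes, picked out after their values were seen. Per kilobase of transcript, Calb2 had 24.7, 6.52 and 6.64 RPKM in the prefrontal libraries, and Eomes had 1.91, 0.124 and 0.115 RPKM. The cause was not tested.

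**Figure D2:**
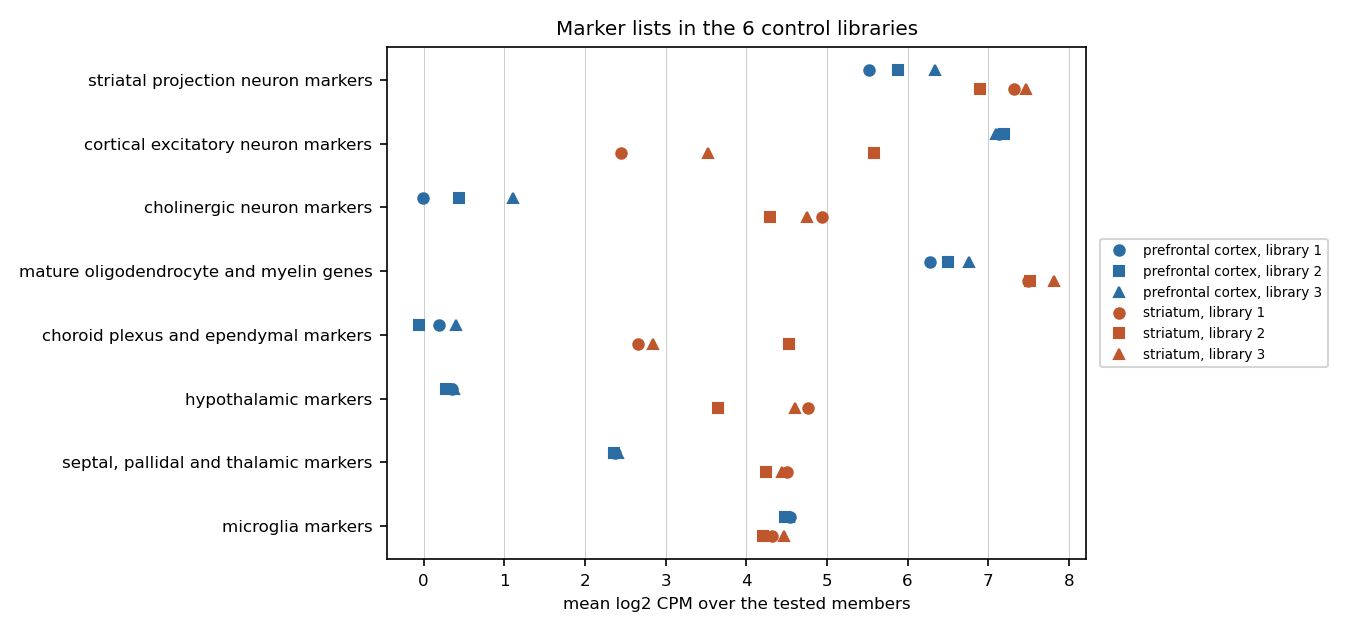
Mean log2 CPM over the tested members of 8 marker lists (horizontal axis) in each control library (symbols), with prefrontal cortex in blue and striatum in orange. Striatal library 2 (square) is the highest striatal library for cortical excitatory (5.58) and choroid plexus and ependymal markers (4.53) and the lowest for striatal projection neuron markers (6.90).

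Striatal projection neuron markers set the regions apart in the direction of their name. Of 22 tested members, 18 were higher in striatum and none lower, with a median log2 fold change of 1.508 against 0.018 over all genes tested. Ppp1r1b, which encodes DARPP-32, the phosphatase inhibitor that relays dopamine signals inside these neurons, had 111, 149 and 224 CPM in the prefrontal libraries and 530.5, 371 and 659 CPM in the striatal ones. All 3 striatal libraries lay above all prefrontal ones (log2 fold change 1.69, SE 0.34, adjusted p = 0.00166, edgeR). Rgs9, which speeds the shut-off of G protein signals at dopamine and opioid receptors, had 18.1, 30.5 and 55.5 CPM in cortex and 232, 146 and 211 CPM in striatum (2.51, SE 0.43). Gng7, a subunit of the G protein that couples dopamine receptors to cyclase, differed by 1.66 (SE 0.29), and Rarb, a retinoic acid receptor, by 1.89 (SE 0.31). The 4 members without a call were Ano3, Arpp21, Dclk3 and Foxp1, picked out here for lacking one. Foxp1, a transcription factor of striatal neurons and of cortical layers, had 126.0 ± 13.9 CPM in cortex and 100.8 ± 13.4 CPM in striatum (SD, n = 3 each; log2 fold change -0.32, SE 0.22).

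Markers of the direct pathway class were higher in striatum in 7 of 9 tested members, with none lower and a median log2 fold change of 1.589. Without striatal library 2, 7 were higher and 1 lower. Drd1, the D1 dopamine receptor, had 13.5, 23.1 and 31.4 CPM in the prefrontal libraries and 106, 64.7 and 107 CPM in the striatal ones (2.05, SE 0.37, adjusted p = 0.000905, edgeR). Tac1, the precursor of substance P, had 14.8, 20.9 and 31.1 CPM in cortex and 101, 75.9 and 84.8 CPM in striatum (1.98, SE 0.29). Isl1, a transcription factor of direct pathway and cholinergic neurons, was near the floor in cortex, with 0.0988, 0.385 and 0.818 CPM, and had 26.9, 16.6 and 17.5 CPM in striatum (5.64, SE 0.36). Slc35d3, a nucleotide sugar transporter family member, differed by 2.85 (SE 0.41). Pdyn, the dynorphin precursor, differed least of these, with 36.5, 35.1 and 33.8 CPM against 79.4, 48.4 and 62.8 CPM (0.85, SE 0.18).

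Markers of the indirect pathway class were higher in 6 of 8 tested members, with none lower and a median of 2.002. Drd2, the D2 dopamine receptor, had 3.95, 9.12 and 18.9 CPM in the prefrontal libraries and 72.9, 47.6 and 78.5 CPM in the striatal ones (2.68, SE 0.50, adjusted p = 0.00101, edgeR). Adora2a, the adenosine receptor of the indirect pathway, had 5.63, 12.7 and 32.1 CPM in cortex and 111, 74.8 and 130.0 CPM in striatum (2.68, SE 0.56). Both genes were highest among cortical libraries in library 3, yet no cortical value reached a striatal one. Penk, the enkephalin precursor, had 56.6, 77.2 and 130.2 CPM in cortex and 472, 311 and 521 CPM in striatum (2.31, SE 0.31). Gpr6, an orphan receptor of these neurons, differed by 2.66 (SE 0.45) and the transcription factor Sp9 by 1.70 (SE 0.20). Per kilobase of transcript, the striatal level of Penk was 266 RPKM, that of Drd2 26.1 RPKM and that of Drd1 25.5 RPKM.

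**Figure D3:**
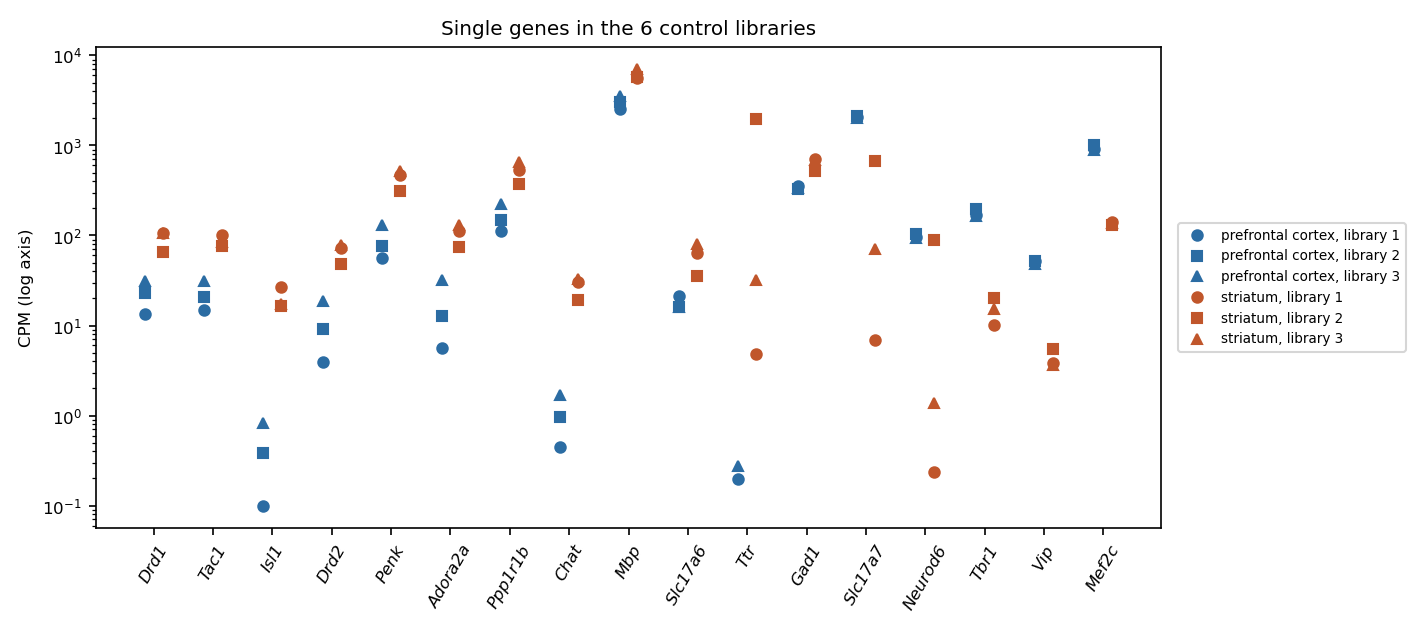
CPM on a log axis for 17 genes in the 6 control libraries, with prefrontal cortex in blue and striatum in orange. Ttr was at 0 in prefrontal library 2 and has no symbol there. Striatal library 2 (square) lies near the cortical level for Neurod6 and far below it for Tbr1.

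Cortical excitatory neuron markers were lower in striatum in 12 of 16 tested members and higher in none, with a median log2 fold change of -2.524. Tbr1, a T-box factor of deep layer cortical neurons, had 168, 197 and 166 CPM in cortex and 10.2, 20.02 and 15.1 CPM in striatum (-3.55, SE 0.29, adjusted p = 2.71e-06, edgeR). Mef2c, an activity-regulated transcription factor, had 911, 1008 and 882 CPM in cortex and 142, 129 and 139 CPM in striatum (-2.77, SE 0.12). For both genes all striatal libraries lay below all cortical ones. Slc17a7, the vesicular glutamate transporter of cortical and hippocampal pyramidal neurons, spread more widely, with 2074, 2137 and 2022 CPM in cortex and 6.83, 676 and 69.9 CPM in striatum (-3.05, SE 1.05, adjusted p = 0.0339).

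These markers depended on striatal library 2. Without it all 16 members were lower and their median was -3.707. Slc17a7 was then at -5.75 (adjusted p = 0.000211), and it was not called without striatal library 3 (-2.61, adjusted p = 0.102) or without any 1 prefrontal library (adjusted p = 0.0602 to 0.0677), nor in the 6 control libraries alone (adjusted p = 0.075). Neurod6 was not called with all libraries (-1.71, SE 1.02, adjusted p = 0.199) and stood at -6.86 without striatal library 2 (adjusted p = 1.27e-06).

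Layer markers did not all follow. Among 10 upper layer markers 5 were lower and 3 higher in striatum, and among 15 deep layer markers 6 were lower and 2 higher. Over all genes tested, 21.3% were called lower and 21.7% higher. Without striatal library 2, 6 deep layer markers were lower and 4 higher. Cux2, a homeobox factor of upper layers, was at -1.39 (SE 0.07) and Rorb, a nuclear receptor of middle layer neurons, at -1.32 (SE 0.10). Of the deep layer markers, Cplx3, a complexin of subplate neurons, had 15.5, 19.8 and 19.2 CPM in cortex and 1.28, 0.920 and 2.44 CPM in striatum (-3.52, SE 0.46). Etv1, a transcription factor of deep layer output neurons, differed by -1.04 (SE 0.08). Mdga1, an adhesion protein listed with the upper layers, was higher in striatum, with 39.7, 27.8 and 32.6 CPM against 71.9, 79.3 and 72.8 CPM (1.16, SE 0.14).

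Transcription factor lists showed opposite directions. Of 25 tested striatal transcription factors 20 were higher and none lower (median 1.404), and of 28 cortical ones 17 were lower and none higher (median -1.264). Without striatal library 2 the cortical count was 22. Zfhx3, a large zinc finger homeobox factor, had 3.36, 5.46 and 6.20 CPM in cortex and 41.8, 24.7 and 41.8 CPM in striatum (2.87, SE 0.25). Zfp503, a zinc finger factor of striatal development, differed by 2.94 (SE 0.27), and Dlx5, a homeobox factor of ventral forebrain GABA neurons, by 1.98 (SE 0.19). Foxp2, a forkhead factor linked to speech, differed by 1.40 (SE 0.22). Ldb2, a cofactor of LIM homeobox proteins, was lower in striatum by 1.53 on the log2 scale, with 74.3, 86.1 and 80.0 CPM against 29.2, 26.8 and 27.3 CPM (SE 0.08).

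The promoters of 3 genes higher in striatum are shown: Rgs9 and Gpr6, described above, and Dlk1, an imprinted Notch ligand homologue with a log2 fold change of 6.22. Each holds at least 1 of 5 short motifs searched on both strands and lies outside its gene as GENCODE annotates it, and they were chosen after the matches were seen. Each sequence is the stretch of 250 bases before the start that RefSeq gives, build GRCm38.p6, and capitals mark the motif matches. The Rgs9 promoter lies at chr11:109298182-109298431 on the minus strand, that of Gpr6 at chr10:41072291-41072540 on the minus strand and that of Dlk1 at chr12:109452573-109452822 on the plus strand.
Rgs9: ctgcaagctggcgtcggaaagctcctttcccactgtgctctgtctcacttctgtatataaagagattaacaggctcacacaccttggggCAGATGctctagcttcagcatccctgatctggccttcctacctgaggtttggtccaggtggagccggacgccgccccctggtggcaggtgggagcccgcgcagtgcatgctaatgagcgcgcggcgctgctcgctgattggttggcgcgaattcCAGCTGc
Gpr6: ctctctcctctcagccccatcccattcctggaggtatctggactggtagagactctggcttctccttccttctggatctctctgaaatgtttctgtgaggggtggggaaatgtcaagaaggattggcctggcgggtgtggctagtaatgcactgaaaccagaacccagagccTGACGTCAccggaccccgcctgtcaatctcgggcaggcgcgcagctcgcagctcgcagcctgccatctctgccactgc
Dlk1: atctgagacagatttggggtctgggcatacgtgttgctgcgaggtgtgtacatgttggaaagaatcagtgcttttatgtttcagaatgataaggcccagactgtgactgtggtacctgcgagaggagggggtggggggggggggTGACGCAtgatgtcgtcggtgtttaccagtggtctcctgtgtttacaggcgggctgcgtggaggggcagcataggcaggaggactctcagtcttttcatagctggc

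The motifs were the cyclic AMP response elements TGACGTCA and TGCGTCA, the homeobox core TAATTA, and the E-boxes CAGATG and CAGCTG. Promoters were found for 11494 of the 14545 genes, 14749 promoters in all. TAATTA was present in 2.6% of them, in 3.4% of the 935 promoters of genes at least 2-fold higher in striatum and in 4.2% of the 689 of genes at least 2-fold lower. TGCGTCA was present in 2.7% of all, 1.5% of the higher and 1.5% of the lower set, and TGACGTCA in 2.5%, 1.8% and 1.9%. CAGATG was present in 10.4%, 13.4% and 12.3%, and CAGCTG in 12.5%, 13.4% and 14.9%. No test of these shares was made. A match is a stretch of letters and not a shown binding site.

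GABA neuron genes were called in both directions. Both enzymes of GABA synthesis were higher in striatum. Gad2 had 188, 209 and 200.3 CPM in cortex and 900.4, 539.8 and 769 CPM in striatum (1.89, SE 0.17, adjusted p = 5.46e-06, edgeR). Gad1 had 359, 332 and 334 CPM in cortex and 709.8, 525 and 686 CPM in striatum (0.91, SE 0.11). Slc32a1, which loads GABA into vesicles, differed by 1.77 (SE 0.14).

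Of 21 GABA interneuron markers, 10 were higher and 8 lower in striatum, against 21.7% and 21.3% of all genes tested. Gad1, Gad2 and Slc32a1, given above, are on this list and count among the higher members. Vip, the peptide of a cortical interneuron class, was lower in striatum, with 52.1, 51.9 and 48.6 CPM against 3.79, 5.46 and 3.60 CPM (-3.57, SE 0.16, adjusted p = 5.13e-08). Npy, a peptide of interneurons in both regions, had 87.4, 86.7 and 92.9 CPM in cortex and 23.97, 28.99 and 32.06 CPM in striatum (-1.65, SE 0.17). Nos1, the neuronal nitric oxide synthase, had 49.0, 50.4 and 53.1 CPM in cortex and 106, 97.0 and 119 CPM in striatum (1.08, SE 0.09). Nkx2-1, a factor of ventral forebrain neurons that is also on the hypothalamic list, had 0, 0.385 and 0.545 CPM in cortex and 12.3, 8.17 and 10.1 CPM in striatum.

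Cholinergic neuron markers had one of the largest medians of any list. All 8 tested members were higher in striatum (median 4.428), and 2 of the 10 listed held only multiples of 11. Chat, the enzyme that makes acetylcholine, had 0.445, 0.963 and 1.70 CPM in cortex and 30.27, 19.04 and 32.97 CPM in striatum (4.79, SE 0.33, adjusted p = 8.49e-07, edgeR). Slc5a7, the choline transporter, differed by 4.06 (SE 0.28), and Slc18a3, the vesicular acetylcholine transporter, by 3.66 (SE 0.32). Slc18a3 lies within the Chat gene, so reads of the pair may be shared. The LIM homeobox factor Lhx8, which specifies these neurons, had 0.0988, 0.128 and 0.409 CPM in cortex and 26.7, 16.4 and 22.9 CPM in striatum (6.74, SE 0.39). Lhx8 and the list member Zic1 are also on the septal, pallidal and thalamic list. Outside the cholinergic list, Ngfr, a neurotrophin receptor, differed by 5.68 (SE 0.45). Slc10a4, a transporter-like protein of cholinergic and monoamine vesicles, also outside it, differed by 5.41 (SE 0.43). The part of bordering tissue in these differences was not tested.

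Dopamine system genes were mostly higher in striatum on the receiving side. Of 21 dopamine receptor and signalling genes 12 were higher and 3 lower (median 0.513). Besides Drd1 and Drd2, Drd3, the D3 receptor of ventral striatum, had 3 counts in the prefrontal libraries together and 229 in the striatal ones, a ratio of 71.1 after scaling (95% exact counting interval 24 to 347). Adcy5, the main striatal adenylyl cyclase, had 201, 237 and 294 CPM in cortex and 719, 503 and 747 CPM in striatum (1.43, SE 0.27). Another cyclase, Adcy1, went the other way, with 1187, 1416 and 1224 CPM against 198, 639 and 237 CPM (-1.83, SE 0.34). Prkar1b, a regulatory subunit of protein kinase A, was lower in striatum as well (-1.08, SE 0.10).

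Genes of dopamine synthesis, transport and breakdown were called higher in 4 and lower in 1 of 10 tested members. Of all genes tested, 42.9% were called in either direction. The dopamine transporter gene Slc6a3 did not pass the filter on low counts. Th, which makes the dopamine precursor, had 8.20, 3.21 and 3.54 CPM in cortex and 11.5, 6.85 and 11.5 CPM in striatum (0.96, SE 0.32, adjusted p = 0.0267, edgeR). The groups overlapped only through prefrontal library 1, which lay above striatal library 2. The call of Th was lost without striatal library 1 or 3 or prefrontal library 2 or 3 (adjusted p = 0.0854 to 0.106). Without striatal library 1 or 3 or prefrontal library 2 the list held 2 higher members. Slc18a2, the vesicular monoamine transporter, had 0.642, 0.128 and 0.341 CPM in cortex and 8.28, 5.24 and 6.75 CPM in striatum (4.09, SE 0.69). Ddc, the next enzyme of the pathway, differed by 1.25 (SE 0.17), and Maob, which breaks dopamine down, by -0.48 (SE 0.09).

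Opioid and tachykinin genes were higher in striatum in 10 of 12 and lower in 1 (median 1.270). The lower member, the receptor gene Oprd1, was picked out for its direction. It had 6.90, 6.96 and 6.44 RPKM in cortex and 4.61, 3.68 and 4.54 RPKM in striatum. Tacr1, the substance P receptor, had 3.46, 2.50 and 4.91 CPM in cortex and 27.6, 16.9 and 34.4 CPM in striatum (2.87, SE 0.28). Tacr3, the neurokinin B receptor, differed by 3.84 (SE 0.30) and Oprm1, the mu opioid receptor, by 1.77 (SE 0.25). Oprk1, the kappa receptor for dynorphin, had 10.87, 10.98 and 13.15 CPM in cortex and 34.4, 18.8 and 26.8 CPM in striatum (1.19, SE 0.26). Other neuropeptides were more often lower, with 9 of 20 lower and 4 higher. Among the exceptions was Nts, neurotensin, with 0.543, 0.642 and 1.02 CPM in cortex and 34.2, 22.7 and 30.9 CPM in striatum (5.34, SE 0.41).

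Serotonin receptors were called in both directions, with 5 of 12 higher in striatum and 2 lower, against 21.7% and 21.3% of all genes tested. Htr2c, a receptor coupled to Gq, had 33.6, 30.4 and 27.7 CPM in cortex and 149, 120.5 and 157 CPM in striatum (2.21, SE 0.13, adjusted p = 2.43e-07, edgeR). Its close relative Htr2a had the opposite order, with 78.0, 75.5 and 58.6 CPM against 24.6, 19.4 and 22.9 CPM (-1.66, SE 0.17). Htr4, a receptor coupled to Gs, differed by 3.21 (SE 0.33), and Htr5a by -1.25 (SE 0.09).

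Among 9 adrenergic receptors 4 were lower in striatum and 2 higher, against 21.3% and 21.7% of all genes tested. Adra1b had 29.7, 33.4 and 27.7 CPM in cortex and 7.06, 5.64 and 9.74 CPM in striatum (-2.01, SE 0.18), and Adrb1 differed by -1.68 (SE 0.16). Endocannabinoid genes were lower in 7 of 9 tested members and higher in none (median -0.748). Mgll, which breaks down an endocannabinoid, had 383, 397 and 364 CPM in cortex and 152, 195 and 145 CPM in striatum (-1.22, SE 0.12), and Daglb, which makes it, differed by -0.80 (SE 0.07). The receptor gene Cnr1, picked out after its values were seen, was not called (-0.30, SE 0.24, adjusted p = 0.331).

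**Figure D4:**
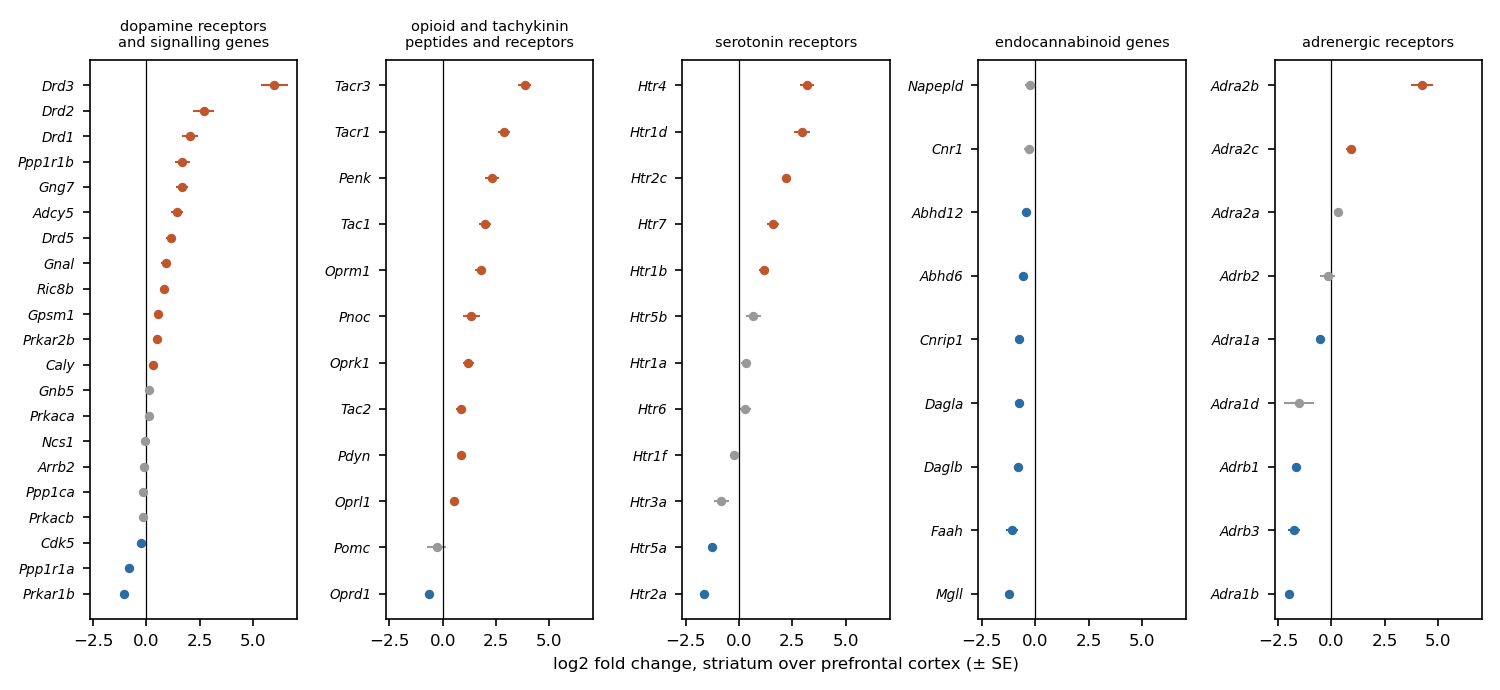
Log2 fold change of control striatum over control prefrontal cortex (horizontal axes) with its SE (bars) for the tested members of 5 transmitter gene lists, in orange where called higher, in blue where called lower and in grey where not called. The opioid and tachykinin list holds 10 members higher in striatum, and the endocannabinoid list holds none.

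Muscarinic, nicotinic and adenosine receptors were mixed, with 4 of 16 higher and 6 lower, against 21.7% and 21.3% of all genes tested. Chrm3, a muscarinic receptor coupled to Gq, had 72.6, 77.1 and 66.7 CPM in cortex and 29.7, 37.3 and 30.5 CPM in striatum (-1.15, SE 0.10). Chrna4, a subunit of the main high-affinity nicotinic receptor, differed by -1.45 (SE 0.13). Glutamate receptor genes showed no common direction: 6 of 17 ionotropic ones were higher and 5 lower. Gria1, an AMPA receptor subunit, was higher in striatum (0.66, SE 0.11) and Gria3 lower (-1.15, SE 0.10). Grm2, a presynaptic metabotropic receptor, had 74.4, 68.7 and 70.2 CPM in cortex and 5.89, 27.5 and 10.04 CPM in striatum (-2.30, SE 0.41), with library 2 the highest of the striatal ones.

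Second messenger enzyme and ion channel genes were called in both directions, where 21.7% of all genes tested were called higher and 21.3% lower. Of 17 cyclic nucleotide phosphodiesterases 8 were higher and 3 lower, with Pde1c at 1.90 (SE 0.12), Pde3a at 1.88 (SE 0.18) and Pde1a at -1.10 (SE 0.12). Potassium channel genes were lower in striatum in 34 of 56 and higher in 7 (median -0.570). Kcnh7, a channel of the ERG family, had 224, 263 and 227 CPM in cortex and 37.6, 40.8 and 45.1 CPM in striatum (-2.53, SE 0.10, adjusted p = 2.1e-08, edgeR). Kcnj9, a G protein-gated channel subunit, differed by -1.85 (SE 0.11), and Kcnn3, a calcium-activated channel, by 1.35 (SE 0.10). Of 33 sodium, calcium and HCN channel genes 10 were higher and 13 lower. Cacna2d2, an accessory subunit of calcium channels, had 39.6, 45.0 and 44.8 CPM in cortex and 273, 168 and 238 CPM in striatum (2.39, SE 0.18), while its relative Cacna2d1 was at -1.33 (SE 0.11).

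Postsynaptic scaffold genes were lower in striatum in 16 of 22 tested members and higher in none (median -0.606), although upper-quartile factors gave 2 higher members. Shank1, a master scaffold of excitatory synapses, had 775, 786 and 732 CPM in cortex and 285, 396 and 283 CPM in striatum (-1.25, SE 0.12). Shank2 differed by -1.02 (SE 0.09) and Dlgap1 by -1.23 (SE 0.16). Immediate early genes, which neurons switch on with activity, were lower in 18 of 24 and higher in none (median -0.854). Nptx2, a secreted pentraxin that clusters AMPA receptors, had 54.3, 63.2 and 59.5 CPM in cortex and 10.44, 17.95 and 15.01 CPM in striatum (-2.03, SE 0.15). Homer1, counted per gene without separating its transcript forms, had 342, 425 and 319.7 CPM in cortex and 131, 130.4 and 137 CPM in striatum (-1.45, SE 0.20).

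Oligodendrocyte genes were higher in striatum. All 20 tested myelin genes were called higher, with a median log2 fold change of 1.101 and quartiles of 1.038 and 1.162. Without striatal library 2, 19 of the 20 were. Mbp, the myelin basic protein, had 2559, 3018 and 3513 CPM in cortex and 5601, 5721 and 7093 CPM in striatum (1.02, SE 0.17, adjusted p = 0.000558, edgeR). Nkx6-2, a homeobox factor of oligodendrocytes, differed most of the named ones, by 1.71 (SE 0.22), and Sox10 by 0.90 (SE 0.12). Oligodendrocyte precursor markers were higher in 11 of 12 (median 0.699), among them Olig2 with 26.3, 24.5 and 30.4 CPM against 49.5, 50.7 and 51.7 CPM (0.91, SE 0.10).

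Other glial and vascular lists moved less. Of 18 astrocyte markers 9 were higher and 3 lower (median 0.250). Gfap, the astrocyte filament protein, had 123, 100.1 and 111 CPM in cortex and 185, 265 and 202 CPM in striatum (0.96, SE 0.23). Chrdl1, a secreted astrocyte protein that matures synapses, was lower, with 29.9, 29.5 and 23.8 CPM against 6.30, 5.005 and 6.391 CPM (-2.23, SE 0.13). Of 18 microglia markers 4 were lower and none higher, and of 17 endothelial and mural markers 3 were lower and 1 higher, where 21.3% of all genes tested were called lower. Without striatal library 2, 3 microglia markers were lower and 1 higher. For microglia the largest named difference was -0.54 (SE 0.14), that of Gpr34.

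**Figure D5:**
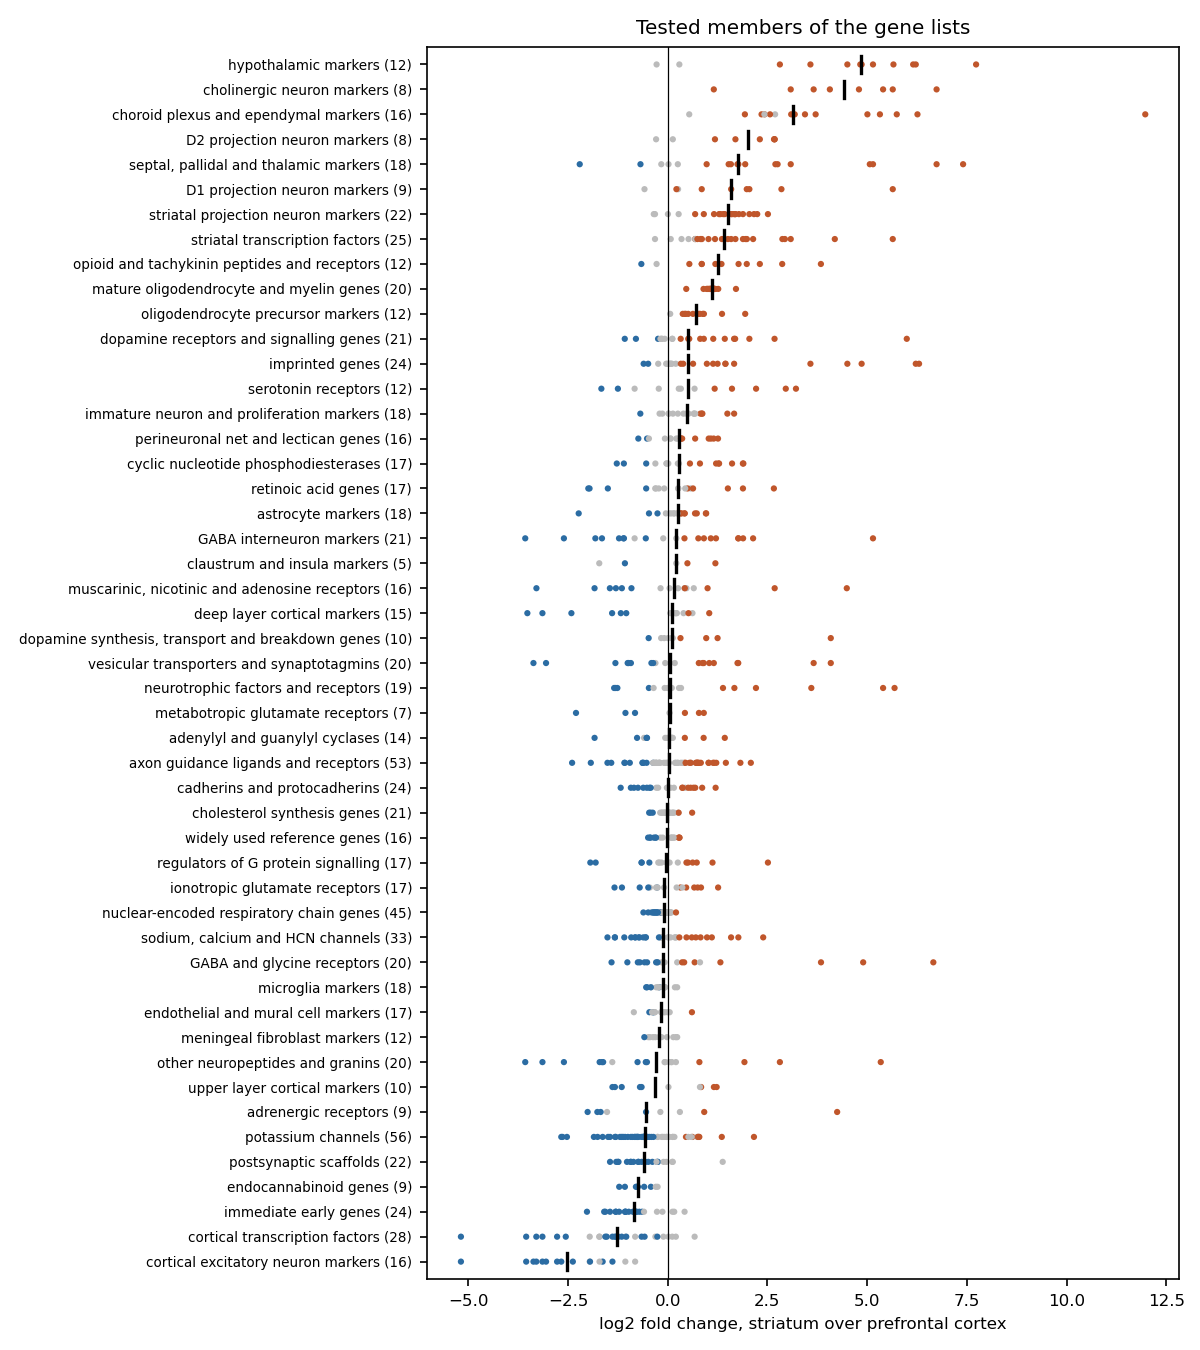
Log2 fold change of control striatum over control prefrontal cortex (horizontal axis) for each tested member (points) of 49 gene lists, ordered by their median (black bars), with the number tested in parentheses. Orange marks genes called higher in striatum, blue those called lower and grey those not called. Hypothalamic (4.843), cholinergic (4.428) and choroid plexus and ependymal markers (3.138) have the highest medians and cortical excitatory markers (-2.524) the lowest.

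Markers of structures that border the striatum were among the genes with the largest differences. Of 22 hypothalamic markers 12 passed the filters, and 10 of these were higher in striatum and none lower (median 4.843). A further 8 held only multiples of 11. Summed over the tested members the list stood at 35.7 to 37.8 CPM in the prefrontal libraries and at 896, 482 and 768 CPM in the striatal ones. Dlk1 had 0.741, 0.899 and 2.25 CPM in cortex and 117, 64.1 and 97.2 CPM in striatum. Gpr101, an orphan receptor, had 0.741, 1.09 and 0.954 CPM in cortex and 80.3, 40.4 and 75.6 CPM in striatum. Baiap3, a regulator of dense-core vesicles, had 7.90, 6.10 and 6.40 CPM in cortex and 240.1, 137 and 206 CPM in striatum (4.83, SE 0.40). Each of these was lowest in striatal library 2.

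Avp, the vasopressin precursor of hypothalamic neurons, varied far more, with 0.148, 0.0642 and 0 CPM in cortex and 21.6, 0.633 and 32.3 CPM in striatum. Its log2 fold change of 7.73 (SE 1.98, adjusted p = 0.0077, edgeR) was not called by limma-voom (6.62, adjusted p = 0.322). The peptide genes Pomc and Agrp, picked out after their values were seen, were the 2 tested members not called (-0.28 and 0.29). The listed peptide gene Trh, also picked out, had 3.14, 1.16 and 0.788 RPKM in cortex and 19.2, 6.44 and 11.95 RPKM in striatum. Oxt and Hcrt held only multiples of 11, and Pmch and Ghrh did not pass the filter on low counts. The part of bordering tissue in these differences was not tested.

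Choroid plexus and ependymal markers were higher in striatum in 13 of 16 and lower in none (median 3.138). Without striatal library 2 they were higher in 12 and lower in 1, with a median of 2.483. Ttr was at 11.97 (SE 2.88, adjusted p = 0.00527) with all libraries, from the striatal values given above and 0.198, 0 and 0.273 CPM in cortex. It stood at 6.81 without striatal library 2 and was not called by limma-voom (8.98, adjusted p = 0.479). Foxj1, the master factor of ciliated ependymal cells, was even across libraries, with 3.31, 4.62 and 5.38 CPM in cortex and 23.2, 23.8 and 23.8 CPM in striatum (2.43, SE 0.18). Clic6, a choroid plexus chloride channel family member, had 0.543, 0.642 and 1.36 CPM in cortex and 30.0, 46.2 and 22.6 CPM in striatum (5.32, SE 0.33). Prlr, the prolactin receptor, differed by 5.74 (SE 0.71), with 39.5, 37.5 and 25.3 CPM in striatum.

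Of 18 septal, pallidal and thalamic markers 13 were higher in striatum and 2 lower (median 1.759). Gbx1, a homeobox factor of basal forebrain neurons, had 3 counts in the prefrontal libraries together and 616 in the striatal ones, a ratio of 191 after scaling (95% exact counting interval 65.1 to 929). Slc17a6, the vesicular glutamate transporter of thalamic and other subcortical neurons, had 21.1, 16.2 and 16.1 CPM in cortex and 64.7, 35.7 and 79.9 CPM in striatum (1.75, SE 0.40). Tcf7l2, a Wnt pathway factor of thalamic neurons and of young oligodendrocytes, differed by 1.94 (SE 0.17). Ramp3, a receptor partner protein, was lower in striatum (-2.21, SE 0.15).

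The remaining genes with the largest differences were of varied function. Higher in striatum were Gabre, the epsilon subunit of GABA-A receptors (6.66, SE 0.88), and Gabrq, its theta subunit, with 1.33, 0.963 and 1.57 CPM in cortex and 50.7, 25.1 and 40.0 CPM in striatum (4.90, SE 0.59). Dgkk, a diacylglycerol kinase, differed by 5.68 (SE 0.55) and Arhgap36, a regulator of hedgehog signalling, by 5.40 (SE 0.61). Irs4, an insulin receptor substrate that is also on the hypothalamic list, differed by 5.66 (SE 0.82). Each of these genes was lowest among striatal libraries in library 2. So were 11 of the 12 tested hypothalamic markers and 20 of the 22 striatal projection neuron markers. The part of bordering tissue was not tested. C1ql2, a synaptic organiser of dentate mossy fibres, had 6.24, 34.9 and 5.83 CPM in striatum and at most 0.385 CPM in cortex, and its difference of 5.69 (SE 0.95) was 4.32 without striatal library 2.

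Lower in striatum were Hkdc1, a hexokinase-like enzyme, with 36.9, 37.3 and 39.3 CPM in cortex and 0.467, 1.67 and 0.761 CPM in striatum (-5.29, SE 0.22, adjusted p = 3.03e-08), and Myl4, an atrial myosin light chain (-5.27, SE 0.35). Another muscle protein gene, Tnnc1, the slow and cardiac troponin C, had 22.97, 23.89 and 24.73 CPM in cortex and 1.75, 1.61 and 1.42 CPM in striatum (-3.90, SE 0.16). Secreted factors were among them: Bmp3 (-3.52, SE 0.22), Wnt9a (-3.57, SE 0.32), Dkkl1 (-4.97, SE 0.37) and Ccn3, with 193, 201 and 186 CPM in cortex and 4.78, 23.7 and 15.2 CPM in striatum (-3.73, SE 0.38). Serpinb8, a protease inhibitor, was at -4.22 (SE 0.52) and Dtl, a ubiquitin ligase adaptor, at -3.51 (SE 0.14).

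Axon guidance genes were called in both directions, 19 of 53 higher and 12 lower, against 21.7% and 21.3% of all genes tested. Efnb3, an ephrin ligand, was higher, with 73.3, 76.9 and 82.4 CPM in cortex and 213, 207 and 218 CPM in striatum (1.46, SE 0.09), and Ephb6, a kinase-dead Eph receptor, was lower by 1.93 on the log2 scale (SE 0.17). Netrin gene Ntn1 differed by 1.82 (SE 0.19). Imprinted genes were higher in 14 of 24 and lower in 2 (median 0.510), among them Peg10 (3.58, SE 0.29) and Magel2 (4.50, SE 0.50), both also on the hypothalamic list. Of 16 widely used reference genes 6 were lower and 3 higher, against 21.3% and 21.7% of all genes tested. Gapdh, a glycolytic enzyme with many pseudogenes, so that its counts are uncertain, had 1657, 1736 and 1804 CPM in cortex and 1297, 1411 and 1368 CPM in striatum (-0.35, SE 0.07).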

How the data were processed

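Per the labels' protocols, RNA of integrity number at least 8.9 was made into stranded mRNA libraries and read in 101 bp pairs. The submitters' processing notes name STAR 2.7.1a, featureCounts and the mm10 build. Annotation and strand setting: not given in the sources used here. The authors deposited whole-number counts per gene symbol.

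Symbols holding only multiples of 11 or 0 in all 12 libraries were left out (0.144% of counts). Counts were fitted in R 4.3.3 with edgeR 4.0.16: filterByExpr, TMM, group as the only term over 12 libraries, 8 residual degrees of freedom, and the two-sided quasi-likelihood test of control striatum minus control prefrontal cortex. P-values were adjusted by Benjamini and Hochberg over all 14545 genes, with calls below 0.05. An SE is the absolute log2 fold change over the root of F. Detection at 15078631 to 20925452 counts per control library set the precision, and the coefficient of biological variation was 11.3% (fitted alone, 7.02% for the cortical and 14.7% for the striatal controls). Scripts were tested on simulated data.

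The 49 lists, which hold 872 genes, and the members were chosen with earlier results of these data known. The lists are described by counts and medians, without a set test. Named genes are the 15 largest calls per direction (mean of at least 10 CPM in the higher region, libraries not overlapping, called in the 6 control libraries alone and with each library left out, regular name), up to 4 members per list with the smallest p, and 22 genes set whatever their values. The results of 2 genes that this rule takes are left out, although counts include them. Lengths for RPKM came from GENCODE exons, for 14380 genes. Alternatives used RLE and upper-quartile factors, DESeq2 1.42.0, limma-voom (limma 3.58.1) with and without group weights, other filters, fewer libraries, a replicate block and other treatments of the multiples of 11.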

Additional observations from a re-analysis of the deposited data

How the results depend on the processing

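The counts of called genes kept their size under every alternative run, within 1.5 times. With other scalings, tools, filters or blocks they lay between 5590 (replicate block, 6 control libraries) and 6469 (limma-voom with group weights). Leaving out each control library in turn gave 5082 to 6197 calls, 2486 to 3094 higher and 2593 to 3103 lower, and 1528 to 1796 at least 2-fold. Every gene called both in an alternative and in the reported fit had the same direction. With upper-quartile factors 58.2% of 6313 calls were higher in striatum, against 50.4% as reported. With the 6 control libraries alone 6029 genes were called, and with striatal library 2 also left out, an alternative chosen after seeing the data, 6805. Keeping the multiples of 11 gave 6199 calls and dividing them by 11 gave 6292. With the replicate block, 5835 genes were called in 12 libraries and 5590 in the 6 controls. Deviations of log2 CPM from the group mean were compared by correlation between each cortical and each striatal control library. Same-numbered pairs had correlations of 0.082, -0.004 and 0.092, and differently numbered pairs -0.12 to 0.028. No label says what a number marks, so the block is given only here. Of 205 called genes among the 210 that the naming rule takes, 9 lost their call under at least 1 alternative: C1qc, Lss, Ly6c1, Ntng2, Ptgds, Slc17a7, Th, Ttr and Avp. The causes were not tested. Genes near the floor of 0.148 to 0.204 CPM have fold changes that depth limits.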

Other observations

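The chromosome of 14448 of the tested genes was known from RefSeq. Of the 156 genes called at least 8-fold higher in striatum, 11 lay on chromosome X. That is 2.2% of its 500 tested genes, against 1.025% of the 13948 placed elsewhere than on X. No X-linked gene was called at least 8-fold lower. At any size, 169 X-linked genes (33.8%) were called higher, a larger share than on any autosome, these lying between 17.1% and 27.0%. Gpr101, Dgkk, Irs4, Arhgap36, Gabre and Gabrq are among the 11. Each of the 6 was lower in striatal library 2 than in libraries 1 and 3. The same held for 11 of the 12 tested hypothalamic markers and 20 of the 22 striatal projection neuron markers. The chromosomes were counted after these genes had been seen, and no test was made.

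Nuclear-encoded respiratory chain genes were lower in striatum in 13 of 45 tested members and higher in 1 (median -0.105), where 21.3% of all genes tested were called lower and 21.7% higher. Cox8a, a subunit of cytochrome c oxidase, had 325, 310.5 and 361 CPM in cortex and 194, 239.9 and 218 CPM in striatum (log2 fold change -0.61, SE 0.10, adjusted p = 0.000424, edgeR). Without prefrontal library 3, which had the highest cortical level in 32 of the 45, the list held 8 lower members. Perineuronal net and lectican genes were higher in 8 of 16 and lower in 2. Adamts4, a protease that cuts lecticans, had 26.4, 34.3 and 38.8 CPM in cortex and 73.1, 73.3 and 90.8 CPM in striatum (1.26, SE 0.16), and Ncan, the lectican neurocan, differed by -0.74 (SE 0.12).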
